A study of Mus musculus with 32 samples.

Results

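Fos, Fosb, Jun, Junb, Atf3, Egr1, Ier2, Zfp36, Hspa1a and Hspa1b are 10 genes that cells switch on within minutes to hours of a stimulus or of stress, and that are known to respond when a tissue is taken apart into single cells. They were chosen by name, through their Ensembl identifiers, and all 10 of the 55806 identifiers in the 4 count tables were found in every table and passed the filter on low counts in every comparison. The question put to them was how their RNA differed between sorted cells and whole kidneys, and between sorted cells prepared at embryonic day E14.5 and at E18.5. Whether the ENL mutations moved them within each preparation was then tested.

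The study followed mutations of ENL, the chromatin reader encoded by Mllt1, in the developing mouse kidney by RNA-seq of polyadenylated RNA. T1 and T3 are small in-frame changes of the ENL YEATS domain found in Wilms tumor, carried here as heterozygous floxed knock-in alleles that Cre switches on, in C57BL/6J mice. In the Six2 series, Cre came from the Six2-TGC transgene, a bacterial artificial chromosome that acts in nephron progenitors and marks their descendants. Whole E18.5 kidneys were Six2-TGCtg/+;Enl+/+ (ENL-WT, 2 libraries), Six2-TGCtg/+;EnlT1/+ (ENL-T1, 2 libraries) and Six2-TGCtg/+;EnlT3/+ (ENL-T3, 2 libraries), and sorted cells were ENL-WT and ENL-T1 at E14.5 and at E18.5 (3 libraries of each). In the Foxd1 series, Cre came from Foxd1GC, a knock-in that removes 1 Foxd1 allele and acts in stromal progenitors, in the genotypes Foxd1GC/+;Enl+/+ and Foxd1GC/+;EnlT1/+, as whole E18.5 kidneys (3 libraries of each) and sorted E18.5 cells (4 of each). Controls of each series therefore carry the same Cre as the mutants, and sorted cells also carry a tdTomato reporter that Cre turns on. Kidneys for sorting were minced and digested, briefly in trypsin at E14.5 and for longer in collagenase II at E18.5, and live tdT+ cells were taken by flow cytometry. Whole kidneys went into a stranded library kit and sorted cells into an ultra-low-input kit. Digestion, sorting, cell type and kit thus change together between sorted and whole samples and cannot be told apart, and neither can stage and enzyme. Lineage and read length likewise change together in the comparison of Foxd1 with Six2. Per the paper, paired reads had 50 bases in the Six2 series and 75 in the Foxd1 series. Sequencing runs are not described in the labels. Nothing in the labels says that libraries of a group came from separate animals, so p values measure the spread between these libraries.

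Total counts ran from 67137194 to 157266455 per library except in sorted Foxd1 cells, where they ran from 2557443 to 3508381. Mllt1 was read at 26.5 to 233 CPM (counts scaled to library size) over the 32 libraries, and its level does not show which allele is active. Six2 itself stood at 393 to 930 CPM in sorted Six2 cells at E14.5 and 78.7 to 266 at E18.5, against 8.96 to 17.9 in sorted Foxd1 cells, whose stroma markers summed to 6959 to 9597 CPM. Foxd1 was present in sorted Foxd1 cells at 56.1 to 83.2 CPM, but it read 60.03 to 159 CPM in the E14.5 sorts of the Six2 lineage and 9.24 to 41.1 CPM in their E18.5 counterparts. Six2 and the stroma markers therefore separated the sorted lineages, and Foxd1 itself did so at E18.5 but not against the Six2 cells of E14.5.

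Immediate early genes need no new protein to be transcribed: signals through MAP kinases act on factors already bound at their promoters, and their RNAs rise within minutes and decay within hours. Fos, Fosb, Jun, Junb and Atf3 encode subunits of AP-1 type factors, which bind DNA as dimers, Egr1 encodes a zinc finger factor, Ier2 a nuclear protein, and Zfp36 tristetraprolin, which binds AU-rich RNA and speeds its decay. Hspa1a and Hspa1b encode inducible HSP70 chaperones and are switched on mainly through HSF1. In single-cell and sorted preparations of kidney and other tissues this set is a familiar mark of warm enzymatic digestion.

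The promoter sequences are shown for Fos, the gene with the most familiar response, and for Hspa1a and Hspa1b, since the near identity of that pair bears on how their counts can be read. RefSeq's table on GRCm38.p6 had an entry for 8 of the 10 genes, and Ier2 and Egr1 had none. Each run below is the 250 bases before the annotated start site, 5′ to 3′. Capitals mark TGACG (the start of a cAMP response element) in Fos and GAANNTTC (a pair of heat shock element units head to head) in the HSP70 genes.
Fos, chr12:85473640-85473889, plus strand: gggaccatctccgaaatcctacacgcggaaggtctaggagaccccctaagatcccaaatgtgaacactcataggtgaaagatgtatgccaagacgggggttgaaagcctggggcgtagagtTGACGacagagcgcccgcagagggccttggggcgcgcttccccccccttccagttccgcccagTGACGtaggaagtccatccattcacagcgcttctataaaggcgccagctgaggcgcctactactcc
Hspa1a, chr17:34972157-34972406, minus strand: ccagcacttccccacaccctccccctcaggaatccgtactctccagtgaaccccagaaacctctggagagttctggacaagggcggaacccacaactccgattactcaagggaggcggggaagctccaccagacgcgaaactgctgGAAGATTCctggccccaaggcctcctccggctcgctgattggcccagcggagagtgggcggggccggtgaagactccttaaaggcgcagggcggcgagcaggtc
Hspa1b, chr17:34959239-34959488, minus strand: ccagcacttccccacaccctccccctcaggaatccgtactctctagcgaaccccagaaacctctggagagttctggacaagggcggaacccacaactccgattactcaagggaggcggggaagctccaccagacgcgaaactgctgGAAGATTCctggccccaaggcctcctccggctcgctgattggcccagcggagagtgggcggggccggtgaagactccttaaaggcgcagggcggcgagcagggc
The Hspa1a and Hspa1b windows were identical at 247 of 250 positions (98.8%), and both hold GAAGATTC from 104 bases before the start. Fos holds TGACG from 129 and from 66 bases before the start, and the TATAA box from 33 bases before it. Among the other genes, Fosb, Junb and Atf3 each hold 1 TGACG, Jun holds 1 GAANNTTC, and Zfp36 holds the only CArG box of the 8 windows, the motif of serum response factor (SRF). Bases outside the 250 were not searched, nor were Ier2 and Egr1, so a motif not found here may lie elsewhere. On either strand, TGACG was found in 17.8% of 32851 promoters of the same length, GAANNTTC in 6.69%, TATAA in 22.8% and the CArG box in 1.47%. The full element TGACGTCA, the AP-1 site TGACTCA or TGAGTCA, and TTCNNGAA were in none of the 8 windows, against 1.55%, 4.46% and 7.17% of all promoters. These matches describe letters only.

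Fos lies on the plus strand at chr12:85473890-85477273 and Fosb on the minus strand at chr7:19302696-19310051 (GENCODE vM21, GRCm38). Jun (chr4:95049034-95052222) and Junb (chr8:84974484-84978718) are on the minus strand, as are Atf3 (chr1:191170296-191218039), Ier2 (chr8:84661331-84662852) and Zfp36 (chr7:28376784-28380253). Egr1 is on the plus strand at chr18:34859823-34864984. The counting ignored strand, and 7.28% of the exonic length of Jun overlaps exons of its antisense neighbour Junos, 7.52% of Junb overlaps Prdx2, and 3.60% of Zfp36 overlaps Gm44710. Hspa1a (chr17:34969190-34972156) and Hspa1b (chr17:34956436-34959238), both on the minus strand, are near copies: 66.3% of the 50-base stretches of Hspa1a transcripts and 62.3% of those of Hspa1b also occur in other genes, mostly in each other. For stretches of 75 bases, the read length of the Foxd1 series, the shares were 61.7% and 55.8%. A read from such a stretch was placed at a single locus, so the split of counts between them is uncertain, and 19.0% of the exonic length of Hspa1a also overlaps Gm20481. Their sum was therefore fitted too.

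All 10 genes were higher in sorted than in whole Six2 ENL-WT samples at E18.5, from 9.41-fold for Zfp36 to 903-fold for Fosb. In the Foxd1 series 8 were higher, from 12.2-fold for Jun to 1122-fold for Fosb, while Hspa1a and Hspa1b did not pass the test. A gene was called here when its fold change exceeded 2 and its Benjamini-Hochberg adjusted p was below 0.01 in the quasi-likelihood test of edgeR. By that rule 12.6% of 25371 genes were higher in sorted Six2 ENL-WT cells (median log2 fold change of all genes -0.02, of the 10 genes 4.91) and 22% of 14723 in sorted Foxd1 ENL-WT cells (-0.07 and 5.08). In ENL-T1 the counts were the same, 10 and 8, where 12.1% and 23.6% of genes were higher. Together the 10 genes took 0.0139 to 0.0403% of the counts in whole kidneys, 0.178 to 0.447% in sorted Six2 cells and 0.586 to 0.947% in sorted Foxd1 cells.

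**Figure D1:**
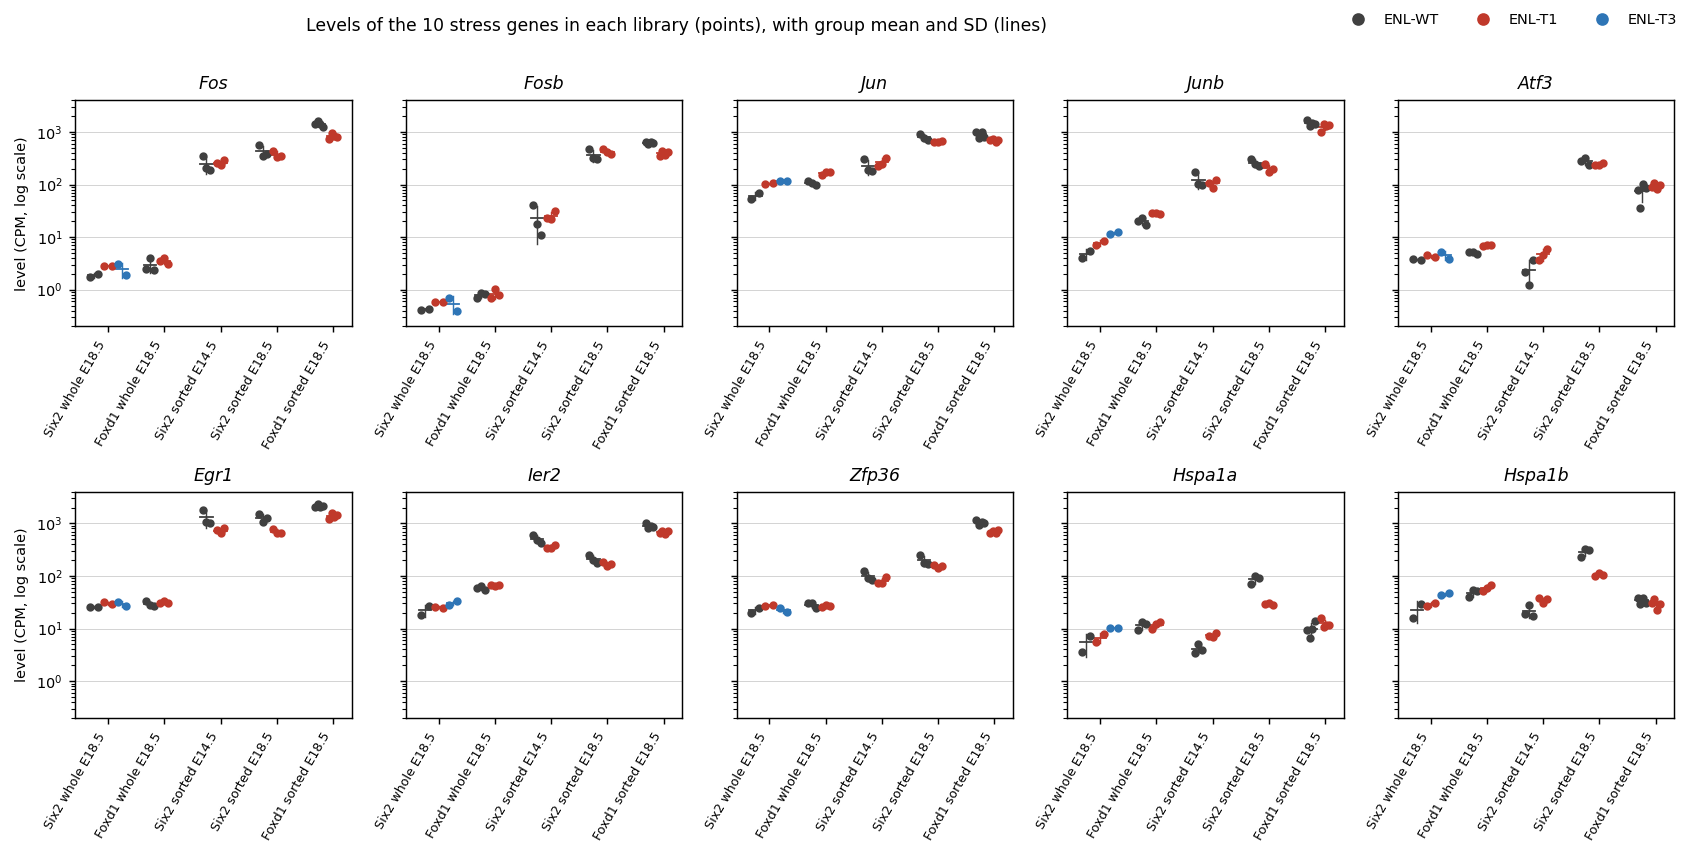
Level of each gene (CPM, log axis) by preparation, with a point for every library, a horizontal line at the group mean and a vertical line of 1 SD; dark points are ENL-WT, red ENL-T1 and blue ENL-T3. Fos reads at most 4.00 CPM in all 12 whole kidney libraries and is at 186 or more in all 20 sorted ones, while Hspa1a exceeds 20 CPM only in the sorted Six2 cells of E18.5.

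Among the AP-1 subunits, Fos stood at 1.74 and 2.01 CPM in the 2 whole Six2 ENL-WT libraries and at 552, 342 and 382 CPM in the 3 sorted E18.5 libraries. The groups did not come near each other, and the log2 fold change was 7.91 ± 0.25 (SE, adjusted p = 9.8e-11 by edgeR's quasi-likelihood test). In Foxd1 ENL-WT Fos read 2.46, 3.95 and 2.37 CPM in whole kidneys and 1424, 1634, 1387 and 1267 CPM in sorted cells. The log2 fold change was 9.45 ± 0.17. In its lowest sorted E18.5 library of either lineage Fos was 83.6 times its level in the highest whole kidney library. Fosb, a partner of Jun proteins like Fos, rose most in both lineages. Its whole kidney levels were 0.419 and 0.434 CPM in Six2 ENL-WT, which rest on 54 to 63 counts, and its sorted levels were 467, 322 and 299.98 CPM (log2 fold change 9.82 ± 0.25). For Foxd1 ENL-WT the same gene went from 0.688 to 0.848 CPM in whole kidneys to 583 to 637 CPM in sorted cells.

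Jun, which had the highest whole kidney level of the 5 AP-1 genes per kilobase of exon (mean 19.2 CPM per kb in Six2 ENL-WT), differed least among them, with 53.0 and 69.2 CPM in whole Six2 ENL-WT kidneys and 699 to 923 CPM after sorting (log2 fold change 3.79 ± 0.13). In Foxd1 ENL-WT it rose by 3.61 ± 0.10 on the log2 scale, from 95.8 to 114 CPM to 769 to 1001 CPM. In ENL-WT, Junb rose by 5.88 ± 0.21 in Six2 and by 6.71 ± 0.14 in Foxd1, where its sorted ENL-WT libraries read 1294 to 1679.5 CPM. Atf3, which forms part of the response to several stresses, changed less in Foxd1 than in Six2. It rose by 6.30 ± 0.14 in Six2 ENL-WT, from 3.79 and 3.70 CPM to 280.5, 320 and 234 CPM, and by 4.37 ± 0.20 in Foxd1 ENL-WT, from 5.30, 5.23 and 4.77 CPM to 77.4, 35.6, 101 and 84.2 CPM. The whole kidney levels of the lineages were close, and the sorted levels did not overlap.

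Egr1 in sorted Foxd1 ENL-WT cells stood at 2046 to 2315 CPM, against 27.2 to 32.8 in whole ENL-WT kidneys (log2 fold change 6.73 ± 0.11). In Six2 ENL-WT it rose by 5.73 ± 0.16, from 25.2 and 26.2 CPM to 1503, 1063 and 1266 CPM. Per kilobase of exon, Junb led in sorted Foxd1 ENL-WT cells with a mean of 640.2 CPM per kb, followed by Fos at 607, Ier2 at 586 and Egr1 at 480.5. Their spreads over the 4 libraries overlapped for Junb, Fos and Ier2. Ier2 rose by 3.33 ± 0.16 in Six2 and 4.43 ± 0.09 in Foxd1, and Zfp36 by 3.23 ± 0.16 and 5.72 ± 0.11.

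At E18.5 the HSP70 genes were called higher with sorting in Six2 but not in Foxd1. The sorted Six2 cells of E14.5 read 3.41 to 8.22 CPM for Hspa1a and 17.3 to 37.6 CPM for Hspa1b. These ranges overlap those of sorted Foxd1 cells of E18.5, 6.66 to 15.8 and 22.5 to 38.8 CPM. Stage and enzyme differ between these sorts as well as lineage, so the part of each cannot be told apart. Hspa1a read 3.64 and 7.23 CPM in whole Six2 ENL-WT kidneys and 69.3, 101 and 92.4 CPM in sorted E18.5 cells, and Hspa1b 15.5 and 29.9 CPM against 232, 322 and 309.5 CPM. They rose by 4.10 ± 0.27 and 3.76 ± 0.24 on the log2 scale. In Foxd1 ENL-WT, Hspa1a read 9.37, 13.4 and 12.04 CPM in whole kidneys and 9.57, 6.66, 9.85 and 13.9 CPM in sorted cells, so the ranges overlapped. Its log2 fold change was 0.29 (95% interval -0.10 to 0.68), and that of Hspa1b was 0.03 (-0.23 to 0.30), so a rise of the size seen in Six2 cells lies outside both intervals. The sorted Foxd1 values of Hspa1a rest on 23 to 40 counts per library. Scaled by library size alone, these differences became -0.14 and -0.40, and the summed counts of the pair gave 0.09 ± 0.13 against 3.84 ± 0.24 in Six2.

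**Figure D2:**
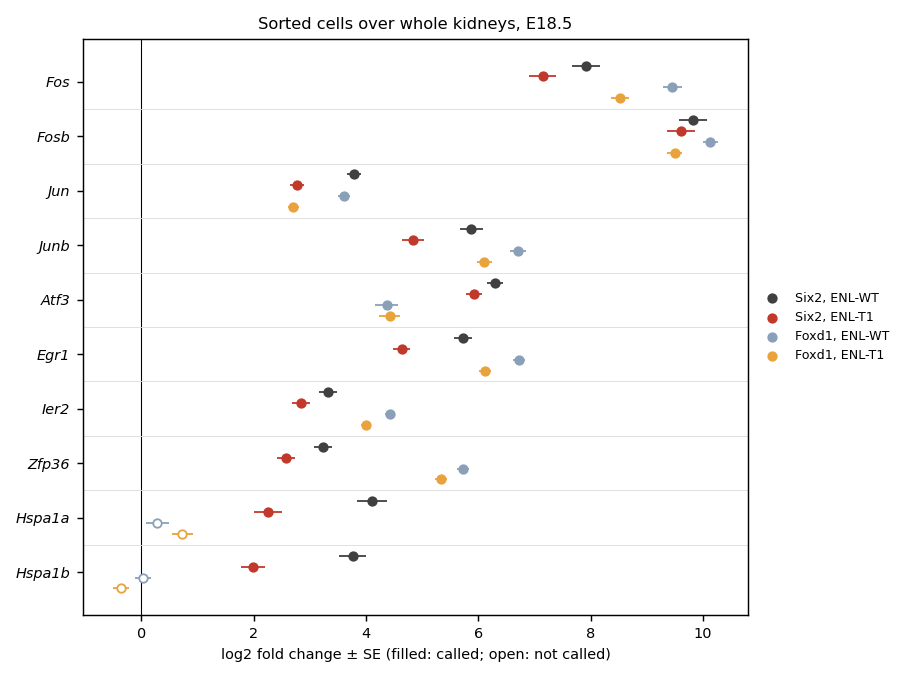
Log2 fold change of sorted over whole E18.5 samples (horizontal axis, points with 1 SE) for each gene, by lineage and genotype; filled points were called and open points were not. The 8 immediate early genes lie above 2.5 in all 4 comparisons, and Hspa1a and Hspa1b lie between -0.36 and 0.73 in the Foxd1 series but between 1.99 and 4.10 in the Six2 series.

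Other genes of these pathways were read from lists. Over all genes, 12.6% were higher and 13.9% lower in sorted Six2 ENL-WT cells, and 22% and 22.9% in sorted Foxd1 ENL-WT cells. Of 40 other immediate early genes, 36 were higher and 1 lower in sorted Six2 ENL-WT cells (median log2 fold change 2.42), and 29 were higher and 0 lower in Foxd1 (2.61). Egr4 and Egr2, relatives of Egr1, led in both lineages, with 8.84 ± 0.69 and 7.81 ± 0.23 in Six2 and 11.21 ± 0.62 and 8.00 ± 0.17 in Foxd1, while Klf2, a Krüppel-like factor, was the gene that fell in Six2, by 1.05. Of 10 other AP-1 subunits, 6 rose and 2 fell in Six2, led by Maff (5.10 ± 0.17) and Fosl1 (3.78 ± 0.12) with Batf and Batf3 lower (-1.55 ± 0.38 and -1.47 ± 0.26), and 4 rose and 1 fell in Foxd1, led by Jund (2.83 ± 0.21) and Batf (2.81 ± 0.23) with Mafg lower (-1.48 ± 0.10).

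The same shares apply to the following lists, 12.6% of all genes higher and 13.9% lower in Six2, and 22% and 22.9% in Foxd1. Of 21 heat shock genes other than the HSP70 pair, 7 rose and 0 fell in Six2 (median 0.82), led by Hspa2 (2.11 ± 0.13) and Dnajb4 (2.07 ± 0.14), and of 20 tested in Foxd1 6 rose and 1 fell (median 0.51), led by the small heat shock protein gene Cryab (1.95 ± 0.09) and Dnajb4 (1.75 ± 0.10), with Hspa4l lower (-1.15 ± 0.16). Among 15 genes of the unfolded protein and amino acid stress responses, 8 rose in Six2, led by Chac1 (5.39 ± 0.30) and Trib3 (3.01 ± 0.38), both targets of ATF4. In Foxd1 6 of 13 tested rose, led by Ddit3 (1.74 ± 0.17) and Dnajb9 (1.65 ± 0.08), and Phgdh fell by 1.15. Of 17 upstream kinases and factors 1 rose in Six2, Srf (2.49 ± 0.10), while Elk3 and Egfr fell by 1.98 and 1.12. In Foxd1 Srf fell by 1.01 and Mapk14 by 1.53, and 3 genes rose, led by Egfr (1.38 ± 0.09) and Elk4 (1.22 ± 0.07).

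Marker genes of other cell types moved with sorting as well. Of the 10 macrophage markers 9 fell and 1 rose in sorted Six2 ENL-WT cells (summed level 37.9 to 41.9 CPM against 138 to 143 in whole kidneys), but 7 rose and 0 fell in Foxd1 (119 to 306 against 127 to 143). Endothelium markers fell in both, 8 of 8 and 6 of 8, stroma markers fell in Six2 (9 of 10, 1 rose) and rose in Foxd1 (7 of 10), ureteric markers fell in 7 of 9 in both, and red cell markers fell in 7 of 8 in Six2 and in 6 of 6 tested in Foxd1. Nephron progenitor markers rose in Six2 (3 of 7) and fell in Foxd1 (3 of 7). Their part in the stress gene levels was not tested. In bulk samples such as these, fewer cells of a type and less RNA per cell cannot be told apart.

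Set against each other directly, sorted ENL-WT cells of the lineages at E18.5 differed in 7 of the 10 genes, of which 4 were higher in Foxd1, where 16.7% of 27369 genes were, and 3 lower, where 22.9% were (median of all genes -0.37). Foxd1 cells had more Junb (log2 fold change 2.51 ± 0.13), Zfp36 (2.43 ± 0.11), Ier2 (2.11 ± 0.11) and Fos (1.77 ± 0.14), and less Hspa1a (-3.13 ± 0.22), Hspa1b (-3.06 ± 0.17) and Atf3 (-1.90 ± 0.15). Fosb (0.78 ± 0.11) and Egr1 (0.77 ± 0.09) were higher under the fold threshold, and Jun gave 0.20 (95% interval 0.01 to 0.38). A fit of these groups alone took Fosb (1.09) and Egr1 (1.08) past 2-fold. With the whole kidneys of each series as the reference, the change with sorting was larger in Foxd1 than in Six2 for Zfp36 (2.06 ± 0.16), Fos (1.12 ± 0.24), Ier2 (0.68 ± 0.16) and Egr1 (0.58 ± 0.15). It was smaller for Hspa1a (-4.24 ± 0.31), Hspa1b (-4.15 ± 0.25), Atf3 (-2.35 ± 0.25) and Jun (-0.61 ± 0.15). These are 8 genes called at an adjusted p under 0.05 with no fold threshold, the rule used for every interaction, by which the change was larger in Foxd1 for 24.2% of genes and smaller for 31.3% (median of all genes -0.29). By lists, 7 of 40 other immediate early genes were higher and 15 lower in Foxd1 than in Six2 sorted cells, 10 of 21 other heat shock genes were lower and 2 higher, and 9 of 15 unfolded protein and amino acid stress genes were lower and 1 higher. Fitted alone, the sorted Foxd1 libraries passed 12717 genes, among them 39, 20 and 12 of these lists. Genes that passed here only through the deeper libraries could hardly be called higher in Foxd1, so these counts are not an even comparison.

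In sorted Six2 ENL-WT cells, 6 of the 10 genes were higher and 1 lower at E18.5 than at E14.5, with the thresholds used for sorting, where 24.8% of 25222 genes were higher and 20.6% lower. The genes did not move as a block: Atf3, the HSP70 pair and Fosb changed by 13.3-fold or more, Jun and Junb by 3.45-fold and 2.08-fold, Fos and Zfp36 by less than 2-fold, Egr1 by 1.04-fold, and Ier2 fell. Atf3 read 2.18, 1.25 and 3.71 CPM at E14.5 and 280.5, 320 and 234 CPM at E18.5, a log2 fold change of 6.84 ± 0.32 (adjusted p = 7.4e-11 by edgeR's quasi-likelihood test). Over both genotypes the 6 sorted libraries of E14.5 read 1.25 to 6.01 CPM, none above the 3.70 to 7.10 CPM of the 12 whole kidney libraries.

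Hspa1a read 3.41, 5.12 and 3.84 CPM at E14.5 against 69.3, 101 and 92.4 CPM at E18.5 (log2 fold change 4.37 ± 0.17), and Hspa1b 18.8, 27.6 and 17.3 CPM against 232, 322 and 309.5 CPM (3.73 ± 0.18). The E14.5 values of both lie inside the range of the whole kidneys or just below it. Fosb rose by 3.92 ± 0.38, from 41.6, 17.9 and 11.1 CPM, and Jun by 1.79 ± 0.18, from 307, 184.9 and 180.3 CPM. Junb rose by 1.06 ± 0.20, and since that is close to 2-fold, scaling by library size alone (0.93) or leaving out ENL-WT replicate 2 or 3 of E14.5 or replicate 1 of E18.5 (0.91 to 0.95) took it under the threshold.

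Fos (0.75 ± 0.21, adjusted p = 0.0058) and Zfp36 (0.95 ± 0.16, adjusted p = 7.6e-05) were higher at E18.5 under the fold threshold in edgeR's test. With RLE size factors Zfp36 passed 2-fold (1.08). Of 21 alternatives, 8 called Zfp36 and 2 called Fos. Fos was already at 346, 210.2 and 186 CPM at E14.5, and the highest of these lies above the lowest of E18.5. Egr1 stood at 1830.4, 1052 and 995 CPM at E14.5 and at 1503, 1063 and 1266 CPM at E18.5, with a log2 difference of -0.05 (95% interval -0.42 to 0.32). Ier2 was the gene that fell, from 599, 492 and 429 CPM to 250.2, 199 and 179 CPM (-1.31 ± 0.13), with no overlap.

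**Figure D3:**
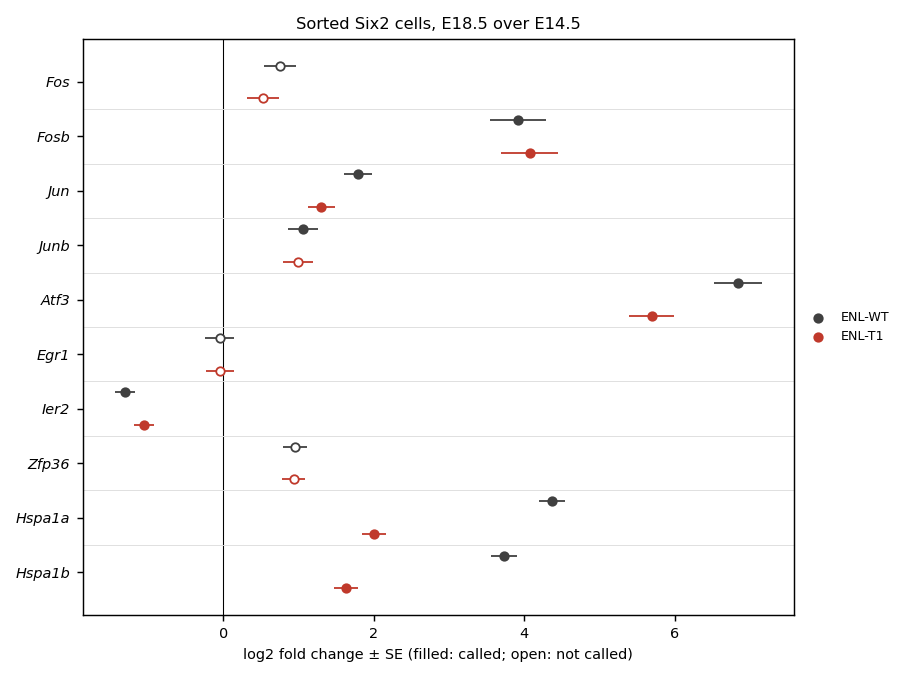
Log2 fold change of E18.5 over E14.5 in sorted Six2 cells (horizontal axis, points with 1 SE) for each gene, in ENL-WT (dark) and ENL-T1 (red); filled points were called and open points were not. Atf3 reaches 6.84 and 5.69, Egr1 lies at -0.05 and -0.04, Ier2 lies below 0, and the genotypes part at Hspa1a (4.37 and 2.00) and Hspa1b (3.73 and 1.63).

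In ENL-T1 cells 5 genes rose and 1 fell between the stages (24.4% of all genes were higher and 19.8% lower). Fosb (4.07 ± 0.38), Atf3 (5.69 ± 0.30), Jun (1.30 ± 0.18), Hspa1a (2.00 ± 0.16) and Hspa1b (1.63 ± 0.16) rose, Ier2 fell by 1.05, and Junb gave 0.99 ± 0.20. Of 21 alternatives, 7 called Junb and 5 called Zfp36 (0.94 ± 0.16). The fall of Ier2 was under 2-fold with RLE size factors (-0.96), in DESeq2 (-0.96), with genes over 1 CPM only (-0.93) and without ENL-T1 replicate 3 of E14.5 (-0.98). The stage change differed between genotypes for 2 genes, Hspa1a (-2.37 ± 0.22, adjusted p = 1.8e-05) and Hspa1b (-2.097 ± 0.23, adjusted p = 6.6e-05 by edgeR's test), where 4.22% of genes had a lower interaction. For Atf3 the interaction was -1.15 ± 0.36 with an adjusted p of 0.073.

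Among the lists, 27 of 40 other immediate early genes rose and 1 fell between the stages in ENL-WT (median 1.65), led by Nr4a3 (10.06 ± 0.30) and Cxcl1 (6.27 ± 0.34), with Egr4 lower (-2.59 ± 0.39). Of 10 other AP-1 subunits 6 rose, led by Fosl2 (6.16 ± 0.18) and Maff (5.05 ± 0.18), and 2 fell, Batf3 (-2.13 ± 0.22) and Batf (-1.99 ± 0.34). Of other heat shock genes 9 of 21 were higher, led by Hspb1 (4.43 ± 0.19) and Cryab (3.61 ± 0.35) and 4 were lower, led by the HSP90 cochaperone genes Fkbp4 (-1.44 ± 0.05) and Ahsa1 (-1.18 ± 0.06). Of 15 unfolded protein and amino acid stress genes 8 rose, led by Chac1 (4.43 ± 0.31) and Trib3 (3.58 ± 0.36), and 0 fell. Of 17 upstream genes 6 rose, led by Egfr (3.33 ± 0.33) and Mapk8 (2.57 ± 0.08), and 2 fell, Map2k2 (-1.58 ± 0.06) and Hsf1 (-1.50 ± 0.07), the latter encoding the factor that acts on the HSP70 promoters. The 4 of 21 heat shock genes and 2 of 17 upstream genes that fell are to be read against 20.6% of all genes lower, and the 6 of 17 upstream genes that rose against 24.8% higher.

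Other measures moved with stage. Mitochondrially encoded genes took 0.599 to 0.803% of the counts at E14.5 and 4.63 to 7.59% at E18.5. In ENL-WT, 5 of 9 ureteric and 5 of 8 endothelium markers rose and 1 of each fell, 6 of 10 macrophage markers fell and 1 rose, 4 of 7 nephron progenitor markers fell, 2 of 10 stroma markers fell and 1 rose, and 2 of 8 red cell markers rose and 1 fell. Of all genes 24.8% were higher and 20.6% lower, and the stroma and red cell counts stood near or below those shares. The part of these in the stress gene values was not tested.

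In whole kidneys, where no digestion was described, T1 and T3 went with higher Jun and Junb in the Six2 series. Calls between genotypes needed a fold change over 1.5 and an adjusted p below 0.05 in edgeR's quasi-likelihood test. For T1, 2 of the 10 genes were called higher (2.88% of 23931 genes, and a median of 0.31 over the 10 genes against -0.01 over all). Jun read 53.0 and 69.2 CPM in ENL-WT, 101 and 105 in ENL-T1 and 119 and 116 in ENL-T3, so that both mutants lay above both controls. The log2 fold changes were 0.75 ± 0.10 for T1 (adjusted p = 0.0025) and 0.97 ± 0.10 for T3 (adjusted p = 0.00065). Junb read 3.93 and 5.55 CPM in ENL-WT, 7.17 and 8.49 in ENL-T1 and 11.5 and 12.6 in ENL-T3, with 0.71 ± 0.16 and 1.37 ± 0.16.

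For T3, 3 genes were called higher (4.34% of genes), the third being Hspa1b (1.01 ± 0.25, adjusted p = 0.027), which read 42.7 and 46.8 CPM in ENL-T3 and 15.5 and 29.9 CPM in ENL-WT. Hspa1a gave 0.94 ± 0.28 with an adjusted p of 0.058, and the sum of the pair 1.00 ± 0.25 with an adjusted p of 0.030. With 2 libraries a group these calls turned on single libraries. For T1, leaving out ENL-WT replicate 1 or ENL-T1 replicate 1 or 2 left 1 gene called, Jun, and leaving out ENL-WT replicate 2, in which all 7 of Fos, Fosb, Jun, Junb, Egr1, Ier2 and Zfp36 were higher than in replicate 1, gave 4. For T3, leaving out that library gave 5, and leaving out ENL-T1 replicate 2, ENL-T3 replicate 1 or ENL-T3 replicate 2 took Hspa1b over an adjusted p of 0.05, as did a fit of the ENL-T3 and ENL-WT libraries alone (adjusted p = 0.052 by edgeR's test). The Hspa1b change was 0.64 without ENL-WT replicate 1 and 1.55 without ENL-WT replicate 2. Mitochondrially encoded genes took 6.35% of the counts in ENL-WT replicate 1 and 2.73% in replicate 2, on either side of the 3.89 to 5.22% of the 4 mutant libraries, and the part of this in the calls was not tested.

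In whole Foxd1 kidneys 1 gene was called higher, Jun (0.63 ± 0.07, adjusted p = 2.3e-05), where 2.65% of 20145 genes were. It read 114, 106 and 95.8 CPM in ENL-WT and 154, 169.5 and 177 CPM in ENL-T1, without overlap, and it fell under 1.5-fold (0.56) without ENL-WT replicate 3. Junb (0.47 ± 0.09), Atf3 (0.41 ± 0.11) and Hspa1b (0.28 ± 0.10) were higher at an adjusted p under 0.05 with changes under 1.5-fold. Fos gave 0.25 ± 0.19 and Egr1 0.08 ± 0.08. The libraries of the genotypes also stood apart in other measures, with 2.89 to 3.39% of counts from mitochondrially encoded genes and 27448 to 27916 genes with a count in ENL-WT, against 1.18 to 1.55% and 26011 to 26325 in ENL-T1. Their part in the Jun value was not tested.

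Of 39 other immediate early genes tested in Six2 kidneys, 2 rose and 3 fell with T1, where 2.88% of all genes were higher and 4.88% lower, and 3 rose and 3 fell with T3, where 4.34% were higher and 5.28% lower. Gadd45b (1.04 ± 0.25 with T1, 1.17 ± 0.25 with T3) was the largest rise, and Ptgs2 (-1.41 ± 0.21 and -1.11 ± 0.21) and Ccn1 (-0.89 ± 0.11 and -1.04 ± 0.11) the largest falls. In Foxd1 kidneys 5 of 38 rose and 2 fell, where 2.65% of all genes were higher and 7.53% lower, with Ccl2 (1.42 ± 0.47) and Ptgs2 (0.91 ± 0.13) highest and Sgk1 (-0.88 ± 0.07) and Ccn1 (-0.63 ± 0.10) lowest. Macrophage markers were higher in 9 of 10 with T1 and with T3 in the Six2 series, summing to 138 to 143 CPM in ENL-WT, 199.9 to 217 in ENL-T1 and 206 to 226 in ENL-T3, and in 0 of 10 in the Foxd1 series. Nephron progenitor markers fell in 4 of 7 with T1 and with T3 in Six2 kidneys, ureteric markers in 2 and 4 of 9, and stroma markers rose in 1 and 2 of 10. In Foxd1 kidneys 3 of 7 nephron progenitor markers rose, 2 of 8 endothelium markers fell, 2 of 9 ureteric markers fell and 1 rose, 1 of 10 stroma markers rose and 1 fell, and 1 of 6 tested red cell markers fell. The part of any of these in the Jun and Junb values was not tested.

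In sorted cells other genes differed between the genotypes. In sorted Six2 cells at E14.5, 3 genes were called, 2 higher and 1 lower, where 4.11% and 2.28% of 22387 genes were. Hspa1a (0.86 ± 0.16, adjusted p = 0.011) and Hspa1b (0.71 ± 0.17, adjusted p = 0.027) were higher in ENL-T1 and Egr1 was lower (-0.82 ± 0.21, adjusted p = 0.038 by edgeR's test). Hspa1a read 3.41, 5.12 and 3.84 CPM in ENL-WT and 7.14, 7.02 and 8.22 CPM in ENL-T1, without overlap. Egr1 read 1830.4, 1052 and 995 CPM in ENL-WT and 738, 654 and 801 CPM in ENL-T1. Without ENL-WT replicate 1, the highest library, its change was -0.49, under 1.5-fold, and the call was also lost without any of the 3 ENL-T1 libraries in turn (adjusted p from 0.080 to 0.124). Ier2 was lower under the fold threshold (-0.50 ± 0.12, adjusted p = 0.024). Leaving out ENL-WT replicate 1, ENL-T1 replicate 1 or ENL-T1 replicate 3 left 1 gene called, Hspa1a.

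At E18.5 all 3 genes called in sorted Six2 cells were lower in ENL-T1 (5.54% of 22685 genes) and they included the HSP70 pair, which was higher in ENL-T1 at E14.5. Hspa1a read 69.3, 101 and 92.4 CPM in ENL-WT and 29.9, 31.0 and 27.5 CPM in ENL-T1, a log2 fold change of -1.52 ± 0.12 (adjusted p = 9.5e-07 by edgeR's test). Hspa1b read 232, 322 and 309.5 CPM against 101, 114 and 104 CPM (-1.40 ± 0.11), and the summed pair gave -1.43 ± 0.11. Egr1 was again lower, at 1503, 1063 and 1266 CPM against 793, 644 and 662 CPM (-0.83 ± 0.11, adjusted p = 0.00012). None of these 3 genes overlapped between genotypes, though the share of all genes without overlap was not counted. The number called stayed at 3 whichever library was left out. Fos (-0.15 ± 0.15), Fosb (0.26 ± 0.13) and Atf3 (-0.15 ± 0.09) did not pass the test.

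In sorted Foxd1 cells 2 genes were called, both lower in ENL-T1 (2.18% of 12717 genes). Fos read 1424, 1634, 1387 and 1267 CPM in ENL-WT and 721, 961, 851 and 797 CPM in ENL-T1 (-0.71 ± 0.08, adjusted p = 1.3e-05 by edgeR's test), and Fosb read 637, 583, 632 and 616 CPM against 341, 443, 362 and 419 CPM (-0.59 ± 0.08, adjusted p = 5.1e-05). Neither gene overlapped between the genotypes. Egr1 (-0.57 ± 0.07), Zfp36 (-0.52 ± 0.08), Ier2 (-0.33 ± 0.07) and Jun (-0.30 ± 0.09) were also lower at an adjusted p under 0.05, with changes under 1.5-fold and no overlap. The share of all genes without overlap was not counted here either. Fosb stood close to 1.5-fold, and leaving out ENL-WT replicate 1, 3 or 4 or ENL-T1 replicate 1 or 3 took it under (-0.53 to -0.58). Egr1 lay just below that threshold (1.48-fold), and 4 of 16 alternatives called it. The 10 genes took 0.848 to 0.947% of counts in ENL-WT and 0.586 to 0.717% in ENL-T1.

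**Figure D4:**
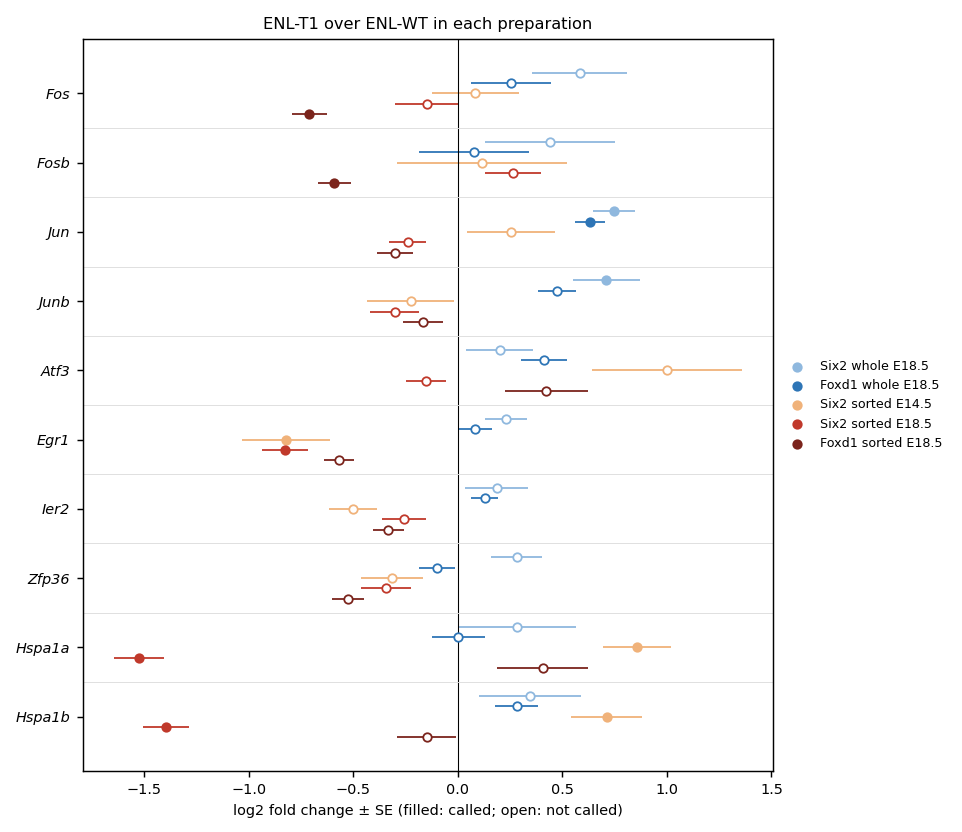
Log2 fold change of ENL-T1 over ENL-WT (horizontal axis, points with 1 SE) for each gene in the 5 preparations; filled points were called and open points were not. Jun is above 0.6 in both whole kidney series and below 0 in both sorted E18.5 series, Egr1 lies between -0.83 and -0.57 in the 3 sorted series, and Hspa1a goes from 0.86 at E14.5 to -1.52 at E18.5 in sorted Six2 cells.

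The difference between sorted and whole samples in the T1 effect was tested itself. In the Six2 series 5 genes had a lower T1 effect in sorted cells, where 2.63% of 25371 genes did: Hspa1a (-1.84 ± 0.32), Hspa1b (-1.77 ± 0.29), Egr1 (-1.09 ± 0.18), Junb (-1.04 ± 0.23) and Jun (-1.02 ± 0.16). In the Foxd1 series it was lower for 7, where 6.3% of 14723 genes were: Fos (-0.93 ± 0.19), Jun (-0.90 ± 0.13), Fosb (-0.63 ± 0.20), Egr1 (-0.61 ± 0.12), Junb (-0.60 ± 0.15), Ier2 (-0.42 ± 0.11) and Zfp36 (-0.39 ± 0.12). No gene of the chosen set had a higher T1 effect in sorted cells by this test. Over all genes tested, 3.02% did in Six2 and 9% in Foxd1, shares at which a set this small may hold none. Jun, Junb and Egr1 were called lower in both series, which share no library. The Junb call in Six2 was lost without replicate 1 of the whole ENL-WT kidneys (adjusted p = 0.091) or replicate 2 of the whole ENL-T1 kidneys (0.102). In Foxd1 the Fosb call was lost without sorted ENL-T1 replicate 3, whole ENL-WT replicate 1 or whole ENL-T1 replicate 2 (adjusted p from 0.056 to 0.166). The Zfp36 call was lost without sorted ENL-WT replicate 1 or 3, sorted ENL-T1 replicate 1 or 3, whole ENL-WT replicate 3, or whole ENL-T1 replicate 2 or 3 (0.062 to 0.121, all by edgeR's test).

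Between the genotypes of sorted cells, list counts are to be read against the genes called over the whole table, which were 4.11% higher and 2.28% lower in E14.5 Six2 cells, 6.14% and 5.54% in those of E18.5, and 3.63% and 2.18% in Foxd1 cells. Of the other immediate early genes, 3 of 38 rose and 0 fell in Six2 cells at E14.5, led by Klf4 (1.21 ± 0.26) and Gadd45b (0.68 ± 0.10). At E18.5 2 of 40 rose, Ccl2 (2.104 ± 0.18) and Egr4 (0.98 ± 0.27), and 4 fell, led by Ccn2 (-0.90 ± 0.07) and Ier3 (-0.83 ± 0.09). In Foxd1 cells 3 of 39 rose, led by Ccl2 (1.63 ± 0.23) and Nr4a3 (1.17 ± 0.21), and 2 fell, Ccn1 (-0.97 ± 0.07) and Klf2 (-0.90 ± 0.13). Among 21 other heat shock genes, 1 fell in Six2 cells at E18.5, Cryab (-1.13 ± 0.12), 1 rose at E14.5, Hspb1 (1.43 ± 0.20), and of 20 tested in Foxd1 cells 2 rose, Hspb8 (1.47 ± 0.29) and Hspa2 (0.65 ± 0.15). Of the 15 unfolded protein and amino acid stress genes 2 fell in Six2 cells at E18.5, Chac1 (-0.75 ± 0.19) and Phgdh (-0.75 ± 0.08).

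Cell type markers also differed between the genotypes of the sorted cells. Stroma markers rose in 8 of 10 and fell in 1 with T1 in Six2 cells at both stages, with summed levels of 440 to 580.3 CPM in ENL-WT and 918 to 1893 CPM in ENL-T1 at E14.5, and of 328 to 586 and 875 to 1010.5 CPM at E18.5. At E18.5, 8 of 10 macrophage markers (37.9 to 41.9 CPM in ENL-WT and 98.2 to 112 in ENL-T1) and 5 of 7 tested red cell markers (108 to 218 and 1546 to 2249.9 CPM) rose too, while Hbb-y was at 0 in every ENL-WT library. Macrophage markers rose in 8 of 10 in sorted Foxd1 cells (119 to 306 and 299 to 399.8 CPM). Nephron progenitor markers fell in 5 of 7 with T1 in Six2 cells at both stages, and ureteric markers in 4 of 9 at E18.5, where 1 rose. The part of any of these in the Hspa1a, Hspa1b, Egr1, Fos and Fosb differences was not tested.

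Libraries of the same group also varied together. After the mean of each of the 11 groups was removed from log2 CPM, Fos, Fosb, Jun, Junb, Egr1, Ier2 and Zfp36 gave Pearson r from 0.504 to 0.869 over their 21 pairs (median 0.736) across the 32 libraries. Atf3 gave -0.054 to 0.332 with these 7 genes. Hspa1a and Hspa1b gave 0.65 with each other, a pair whose counts share reads, and -0.379 to 0.299 with the rest. The points share library depth and scaling, and are a description without a test.

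**Figure D5:**
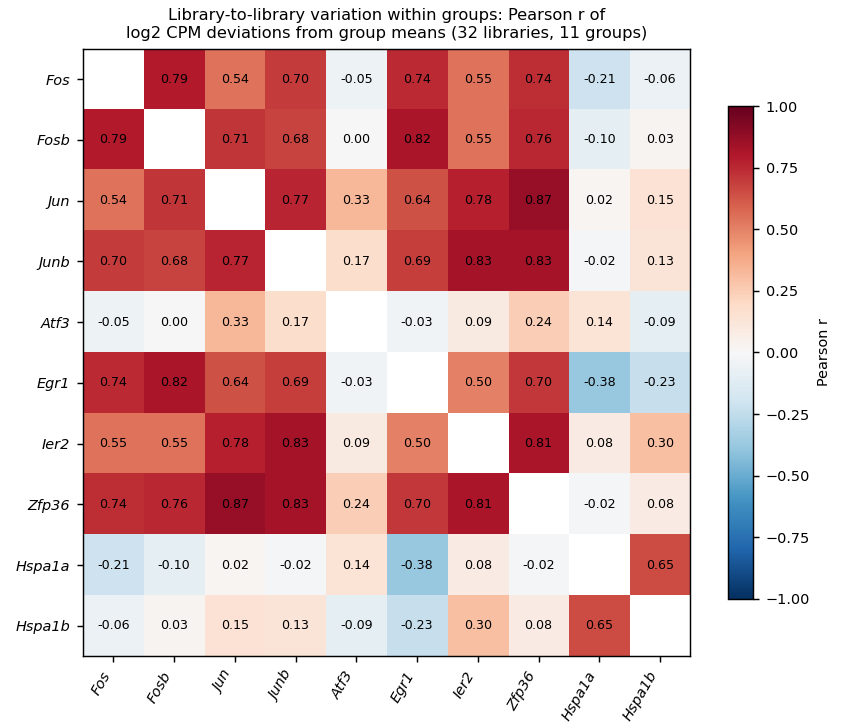
Pearson r (colour and number) between genes over 32 libraries, from log2 CPM after each group mean was removed. The block of 7 genes from Fos to Zfp36, apart from Atf3, holds values of 0.504 or more, and Hspa1a and Hspa1b stand apart from it.

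Of 28248 genes, those most like Fos by this measure were Fosb (0.793), Egr1 (0.745), Zfp36 (0.736), the predicted gene Gm13527 (0.723) and Junb (0.703). The same library was highest for all 7 genes in 4 of the 11 groups: ENL-WT replicate 1 of sorted Six2 cells at E14.5 and again at E18.5, ENL-T1 replicate 3 at E14.5, and ENL-WT replicate 2 of whole Six2 kidneys. In the first of these Fosb read 41.6 CPM against 17.9 and 11.1 CPM in its other replicates.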

How the data were processed

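RNA was measured in 32 libraries of 11 groups, taken from the sample titles and genotype labels. Per the study's methods, the authors aligned reads to mm10 with HISAT2, keeping 1 placement per read, and counted them per gene with HTSeq without strand or any quality minimum. What they deposited are raw whole-number counts per gene, not normalized. The annotation release is not given in the sources used here. Names, positions and exon lengths are from GENCODE vM21 (GRCm38), which names 55536 of 55806 identifiers. Ignoring strand and quality lets overlapping and near-identical genes take each other's reads.

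Counts were tested in R 4.3.3 with edgeR 4.0.16: filterByExpr (minimum count 10, minimum total 15), TMM factors, the quasi-likelihood test, and Benjamini-Hochberg adjustment over all tested genes of a comparison. Genotypes were compared within each preparation, stages over the 12 sorted Six2 libraries, and preparations over the E18.5 libraries of a lineage, leaving out T3. Lineages were compared in 1 fit of the E18.5 libraries of both. Calls between genotypes took an adjusted p below 0.05 and a fold over 1.5, below 0.01 and over 2 between stages, preparations and lineages, and below 0.05 for interactions. The SE is the log2 fold change over the root of its F statistic, and 95% intervals are 1.96 SE to each side. CPM are on a TMM scale over all 32 libraries. Fits of some comparisons, none of them an interaction, were also run on simulated counts, whose outcome is not reported here.

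The members, lists and tests were chosen with earlier results of these data known. Named genes are the 10 members, in each list the 2 called genes of largest change in each direction, the 5 genes most like Fos, and Mllt1, Six2 and Foxd1. Alternatives were DESeq2 1.42.0, the exact test, RLE factors, scaling by library size, a filter at 1 CPM or none, no fold threshold, other sets of libraries, the replicate number as a block, the summed HSP70 pair, and each library left out. Libraries of a group correlated at 0.917 to 0.994, and none was identical to another. Figures were drawn with matplotlib 3.10.9.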

Additional observations from a re-analysis of the deposited data

Results flagged for a closer look

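Effects that differed between groups by a test of the difference itself (an interaction in edgeR's quasi-likelihood fit, adjusted p under 0.05) are gathered here as log2 values. Between genotypes, the rise from E14.5 to E18.5 in sorted Six2 cells was smaller in ENL-T1 for Hspa1a (-2.37) and Hspa1b (-2.097).

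Between preparations, the T1 effect in the Six2 series was lower in sorted cells than in whole kidneys for Hspa1a (-1.84), Hspa1b (-1.77), Egr1 (-1.09), Junb (-1.04) and Jun (-1.02). In the Foxd1 series the same difference was found for Fos (-0.93), Jun (-0.90), Fosb (-0.63), Egr1 (-0.61), Junb (-0.60), Ier2 (-0.42) and Zfp36 (-0.39).

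Between lineages, the difference of sorted from whole ENL-WT samples was larger in Foxd1 for Zfp36 (2.06), Fos (1.12), Ier2 (0.68) and Egr1 (0.58). It was smaller in Foxd1 for Hspa1a (-4.24), Hspa1b (-4.15), Atf3 (-2.35) and Jun (-0.61). Causes of these differences were not tested. In the groups of 4 libraries, the sorted Foxd1 cells, no library of any of the 10 genes stood apart by Dixon's criterion in 20 tests, of which chance alone would pick about 1.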

How the results depend on the processing

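No called difference changed sign under any alternative. The counts of 10 genes called with sorting stayed at 10 and 10 in Six2 and 8 and 8 in Foxd1 whichever library was left out. Between stages, leaving out single libraries gave 6 to 9 called genes in ENL-WT (7 with all libraries) and 6 to 7 in ENL-T1 (6). Leaving out single libraries gave 1 to 4 called genes for T1 in whole Six2 kidneys (2 with all libraries), 2 to 5 for T3 (3), 1 to 4 for sorted Six2 cells at E14.5 (3), 1 to 3 for sorted Foxd1 cells (2) and 0 to 1 for whole Foxd1 kidneys (1). The last count of 0 came without ENL-WT replicate 3, where 1 gene, Jun, stayed at an adjusted p of 0.00014 in edgeR's test but under 1.5-fold. In sorted Foxd1 cells the count was 1 without ENL-WT replicate 4, ENL-T1 replicate 1 or ENL-T1 replicate 3. Without a fold threshold, 6 genes were called in sorted Foxd1 cells and 4 in whole Foxd1 kidneys. Without the low-count filter, 9 had a lower T1 effect in sorted than in whole Six2 samples (5 with the filter), and DESeq2 gave 7. The cause was not tested. With the replicate number as a replicate block, 4 genes in place of 3 were called for T3 in whole Six2 kidneys (Hspa1a added, adjusted p = 0.022) and 4 in place of 3 in sorted Six2 cells at E14.5 (Atf3 added, 1.09). Libraries sharing a number correlated at -0.028 to 0.087 after group means were removed. These values gave no sign of pairing by number, but in groups this small they cannot exclude it. The HSP70 values in sorted Foxd1 cells are limited by the depth of those libraries, by reads shared within the pair and by the choice of scaling.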
